A study of Mus musculus with 2 samples.

Results

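The genes of the basic leucine zipper (bZIP) transcription factors, the family to which cJUN itself belongs, were examined for cJUN binding sites in the embryonic mouse intestine. The set holds 51 genes, chosen by name and sorted into 9 subfamilies (JUN, FOS, ATF, BATF, MAF, NFE2 and BACH, CEBP, CREB, and PAR). A gene counted as having a peak where the deposited peak table names it among the nearest genes of that peak. On this rule 9 of the 51 genes had a peak, at 10 of the 2741 peaks in the table. The table comes from 1 cJUN immunoprecipitate and 1 input library, where input means sonicated DNA that had not met the antibody. Both were made from 8 whole wild type intestines of 1 C57BL/6 litter, taken at E14.5 and held in transwell culture for 24 h. Chromatin was sheared to about 500 bp before the polyclonal rabbit antibody was added. The embryos were pooled and each group has 1 library, so no value below has a replicate error and no difference was tested. The organ was used whole, and a peak list gives no expression level, so neither the cell types that hold a site nor their markers could be examined.

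bZIP proteins bind DNA as dimers: a leucine zipper joins the partners and the basic stretch beside it grips the DNA. AP-1 is the name for dimers of JUN proteins with FOS, ATF, BATF or other JUN proteins, and it binds the AP-1 site TGAGTCA or the related cyclic AMP response element (CRE) TGACGTCA. The other subfamilies use relatives of these sites, as in the C/EBP proteins of differentiation and inflammation, the CREB proteins of cyclic AMP signalling and of the secretory pathway, the NRF and BACH proteins of the oxidative stress response, and the PAR proteins of daily rhythms. JUN is known to act on the promoter of its own gene and on those of other AP-1 subunits.

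The 9 genes with a peak were 4 CREB genes (Creb1, Creb3l1, Crem and Crebzf), 2 CEBP genes (Cebpb and Ddit3), and Atf7, Nfe2l3 and Nfil3. The share of 17.6% (exact 95% interval 8.40 to 30.9) stood beside 12.5% of all 21900 protein-coding genes. That value is inside the interval, so the count did not set the family apart from other genes. The 21900 genes are those of GRCm38.p6, and the gene set behind the deposited list is not given. Any gene missing from that set could not be listed, and how this bears on the 12.5% was not tested. By subfamily, peaks were listed at 4 of 10 CREB genes, 2 of 6 CEBP genes, 1 of 4 PAR genes, 1 of 6 NFE2 and BACH genes and 1 of 9 ATF genes. No peak was listed at any of 3 JUN, 4 FOS, 3 BATF or 6 MAF genes. The CREB share of 40% has an exact interval of 12.2 to 73.8, which is too wide to order the subfamilies. Creb3l1 had 2 peaks and the other 8 genes had 1 each.

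**Figure D1:**
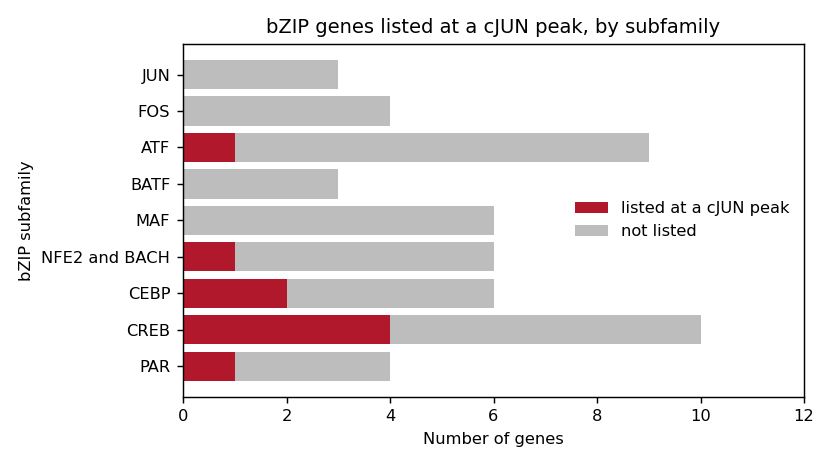
Number of bZIP genes in each subfamily that were listed at a cJUN peak (red) or not (grey), with genes on the horizontal axis and subfamilies down the page. The CREB bar holds the most listed genes, 4 of 10, while the JUN, FOS, BATF and MAF bars hold none.

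The core AP-1 genes carried no peak in this list. Jun, Junb and Jund, which encode the JUN proteins, and Fos, Fosb, Fosl1 and Fosl2, which encode their FOS partners, were all without a listed peak. For 0 of 7 genes the exact interval reaches 41.0%, so the absence is not distinguishable from the 12.5% of all protein-coding genes at this number of genes. The protein-coding genes on either side were without a peak too, at 0 of 14 positions, for example Mysm1 and Fggy beside Jun, Prdx2 and Hook2 beside Junb, and Tmed10 beside Fos. Fos, Jdp2 and Batf are direct neighbours on chromosome 12, so 3 of the members without a peak share 1 stretch of the genome. Over all 42 members without a peak, 5 of 84 neighbour positions (5.95%) held a listed gene, against 7.0% for the 19155 protein-coding genes without a peak, so these surroundings were about as poor in peaks as those of other unlisted genes.

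The exceptions among those neighbours lay beside 4 genes. Bach2, a repressor gene of lymphoid cells, is next to Map3k7, which had 3 peaks, all upstream of Map3k7 by 70.5 to 770 kb. Bach1, a haem-regulated repressor gene, is next to the glutamate receptor gene Grik1, which also had 3 peaks, with folds of 14.74 to 18.42. They lay 8.85 kb upstream of the Grik1 start and 29.2 and 168 kb downstream of it. Nfe2l2 encodes NRF2, the main activator of the oxidative stress response, and its neighbour Hnrnpa3 had 2 peaks, with folds of 22.11 and 18.42. Those peaks lay 432 and 157 kb upstream of Hnrnpa3 and also listed Mtx2, 402 and 676 kb away. The list gives no distance from any of these peaks to Bach2, Bach1 or Nfe2l2. Cebpd, a C/EBP gene of acute inflammation, lies between Mzt2 and Spidr, and 1 peak, of fold 22.11 and score 61.54, listed both of those genes but not Cebpd. That peak was 81.6 kb upstream of the Mzt2 start and 202 kb downstream of the Spidr start. By the gene order, Cebpd may therefore be nearer to the peak than Spidr is. The gene set behind the deposited list is not given, and why Cebpd was not listed was not tested.

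Each peak below is given with the values of the authors' caller. The fold is the signal of the immunoprecipitate over background at the peak. The score grows as the caller's p falls (−log10 p, multiplied by 10), and the lowest in the table is 50.01. Over all 2741 peaks the median fold was 16.75, the median score 61.3 and the median length 149 bp. Distances run from the middle of a peak to the start of the gene, and upstream and downstream follow the direction of transcription. Peak coordinates are on mm9.

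In the ATF subfamily the listed gene was Atf7, which encodes a JUN-dimerising factor that stress-activated kinases phosphorylate. The peak lies on chromosome 15 from 102431060 to 102431200 and had a fold of 15.29, a score of 64.69 and a length of 140 bp. Both places of the peak's gene list name Atf7, with 1 start 24.8 kb before the peak and another 71.7 kb beyond it, which puts the peak between starts 96.4 kb apart. Only 9 of the 2741 peaks name 1 gene at both places. The fold was near the middle of the table, with 44.7% of peaks lower, and so was the score, with 62.1% lower. Atf1, Atf2, Atf3, Atf4, Atf5, Atf6, Atf6b and Jdp2 had no peak. They include the stress-induced Atf3 and Atf4, the membrane-bound sensor gene Atf6 of the endoplasmic reticulum, and Jdp2, which encodes a repressor that dimerises with JUN. The BATF genes Batf, Batf2 and Batf3, whose products pair with JUN in immune cells, had none either.

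The CEBP subfamily had peaks at Cebpb and Ddit3. Cebpb encodes an activator of fat cell, macrophage and acute-phase genes. The site on chromosome 2 from 167576730 to 167576884 was 62.4 kb downstream of the Cebpb start and 181 kb upstream of Ptpn1, a tyrosine phosphatase gene. Its fold was 14.74 and its score 57.34, with 24.8% of peaks scoring lower. No other peak lay within 1822 kb of it.

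Ddit3 encodes CHOP, a stress-induced partner that draws C/EBP proteins away from their usual sites. The site on chromosome 10 from 126735753 to 126735903 was 8.00 kb downstream of the Ddit3 start. It was also 13.0 kb downstream of the start of Mars, a methionyl-tRNA synthetase gene on the opposite strand, so it sat between starts that face each other across 21.0 kb. The fold was 14.66 and the length 150 bp. The score of 50.98 was the lowest of the member peaks and close to the table's floor, with 0.839% of all peaks lower. Cebpa, Cebpd, Cebpe and Cebpg were not listed at a peak.

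The CREB subfamily had 5 of the 10 peaks. Crem encodes activators and repressors of cyclic AMP target genes, and it had the member peak with the highest fold, 22.11, on chromosome 18 from 3231687 to 3231825. Of all peaks 86.3% had a lower fold. Its score was 60.84 and its length 138 bp. It lay 67.8 kb downstream of the Crem start and 108 kb upstream of the vomeronasal receptor gene Vmn1r238. Creb1 encodes the cyclic AMP response activator CREB. The site on chromosome 1 from 64463470 to 64463542 was 116 kb upstream of Creb1 and 296 kb upstream of Klf7, a Krüppel-like factor gene on the other strand. It was 72 bp long with a fold of 5.49, lower than at Crem, and scored 68.23, higher than at Crem.

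Creb3l1 was the member with more than 1 peak. It encodes OASIS, a factor held in the membrane of the endoplasmic reticulum until it is cut, with a known role in collagen secretion by bone-forming cells. The first peak, on chromosome 2 from 91933827 to 91933997, was 170 bp long, its fold 11.53 and its score 92.98. The second, from 92008268 to 92008344, was 76 bp long, its fold 4.88 and its score 79.81. Both scored above the table's median, with 94.1% and 89.2% of all peaks lower, while both folds were below its median. Both lay upstream of Creb3l1, at 69.3 and 144 kb, and upstream of Phf21a, at 90.4 and 16.0 kb. Phf21a encodes a subunit of a histone demethylase complex. The distances add to 160 kb for either peak, so both sit between the same pair of starts. The peaks themselves are 74.3 kb apart, the first nearer to Creb3l1 and the second nearer to Phf21a. Creb3, Creb3l2, Creb3l3, Creb3l4, Creb5 and Xbp1 had no peak. Xbp1, the activator gene of the unfolded protein response, was counted in this subfamily.

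Crebzf was the bZIP gene with a peak closest to its start. It encodes a factor, also called Zhangfei, that binds the host cell factor HCFC1. The peak, on chromosome 7 from 97590474 to 97590543, was centred 782 bp upstream of the Crebzf start and 15.7 kb downstream of the start of Ccdc89, a coiled-coil protein gene on the same strand. It was 69 bp long with a fold of 5.89, and 4.67% of all peaks had a lower fold. Its score of 98.95 was exceeded or equalled by 131 of 2741 peaks, itself included. Among all peaks, 12 were within 1 kb of the start of a listed gene.

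Promoter sequence was looked at for the AP-1 site, for the CRE, and for TGACATCA, the variant known as jun1 from the human JUN promoter, each on both strands. No motif of these overlaps another in the sequences shown. The sequences are the 250 bases before the RefSeq start, 5′ to 3′ along the gene's strand, in GRCm38.p6, a build other than that of the peaks, and capitals mark a match. Jun is shown because it is the gene of the precipitated factor and had no peak. Crebzf is shown because its peak was the nearest to a start, although the 782 bp to the peak's centre put that centre outside the window. Ddit3 is shown because it had the next nearest peak. The windows are chr4:95052223-95052472 on the minus strand for Jun, chr7:90442531-90442780 on the plus strand for Crebzf and chr10:127290543-127290792 on the plus strand for Ddit3.
Jun: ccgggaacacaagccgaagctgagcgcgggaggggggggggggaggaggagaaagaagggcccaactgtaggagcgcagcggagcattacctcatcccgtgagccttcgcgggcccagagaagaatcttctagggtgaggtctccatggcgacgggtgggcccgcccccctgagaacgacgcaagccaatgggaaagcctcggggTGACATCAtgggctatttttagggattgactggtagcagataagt
Crebzf: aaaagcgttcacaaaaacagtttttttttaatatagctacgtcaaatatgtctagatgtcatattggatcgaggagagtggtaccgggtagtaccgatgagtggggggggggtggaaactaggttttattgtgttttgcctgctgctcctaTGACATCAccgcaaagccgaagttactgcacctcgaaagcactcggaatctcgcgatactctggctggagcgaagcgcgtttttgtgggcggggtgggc
Ddit3: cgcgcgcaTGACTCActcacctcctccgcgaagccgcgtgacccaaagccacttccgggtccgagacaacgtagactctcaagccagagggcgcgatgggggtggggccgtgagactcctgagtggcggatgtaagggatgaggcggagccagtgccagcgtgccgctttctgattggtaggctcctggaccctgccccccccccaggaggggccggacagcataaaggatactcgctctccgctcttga

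In these windows Jun and Crebzf both held TGACATCA, 45 bases before the start in Jun and 99 bases before it in Crebzf. Other variants of these sites were not searched for, so the lower-case stretches may hold some. Ddit3 held the AP-1 site as TGACTCA, its reverse complement, 242 bases before the start. Windows were at hand for 41 of the 51 members, 55 windows in all since some genes have several starts. The AP-1 site was in 3 of the 55 (5.45%), against 4.46% of all 32851 windows. The CRE was in 3 (5.45%, against 1.55%), and TGACATCA in 3 (5.45%, against 2.93%). Among the 7 members with a peak and a window, the match in Crebzf and that in Ddit3 were the ones found. A match says that these letters occur in the window and not that the factor binds there.

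The remaining matches were in genes without a peak. Creb3l3, a liver and gut metabolism factor gene, held an AP-1 site 55 bases before its start at chr10:81098912-81098936 on the minus strand. Creb5, a gene close to Atf7 in its family, held a CRE before 1 start and an AP-1 site before another, at chr6:53287249-53287274 and chr6:53573320-53573344 on the plus strand. Maff, a small MAF gene, held a CRE at chr15:79347482-79347507 and TGACATCA at chr15:79348348-79348373, before different starts on the plus strand. Each match is given with up to 9 bases on either side, to set beside the windows above.
Creb3l3: ggtctgctgTGACTCAgaaggaggt
Creb5, CRE: aatcccacgTGACGTCAccggggggg
Creb5, AP-1 site: ggaaggataTGACTCActcaagcta
Maff, CRE: ctggggcggTGACGTCActgcatgac
Maff, jun1: ggagccatgTGACATCAgtgtttgtt
The CRE of Hlf, a PAR gene, lay 9 bases before its start, at the edge of the window. Of the 7 genes with a match, 2 had a peak.

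The PAR and NFE2 subfamilies each had a peak far from the gene. Nfil3 encodes a repressor of daily rhythms and of innate lymphocyte development. Among member peaks, the one on chromosome 13 from 53365268 to 53365364 scored highest, at 150.28, a value that 43 of 2741 peaks reached. The fold was 7.24, with 8.10% of all peaks lower, and the length 96 bp. It lay 289 kb upstream of Nfil3 but 16.2 kb downstream of the start of Ror2, the Wnt receptor gene on the same strand, so Nfil3 was the more distant of its listed genes. Dbp, Hlf and Tef, the activator genes of the PAR group, had no peak.

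Nfe2l3 encodes NRF3, a relative of NRF2 that is anchored in the endoplasmic reticulum. The site on chromosome 6 from 50997469 to 50997534 was 385 kb upstream, the largest distance of the set, and 169 kb from G930045G22Rik. It was the shortest and weakest by fold, 65 bp with a fold of 4.0, and 0.401% of all peaks had a lower fold. Its score was 58.71. Nfe2, Nfe2l1, Nfe2l2, Bach1 and Bach2 had no peak, nor had the MAF genes Maf, Mafa, Maff, Mafg, Mafk and Nrl, whose small members are the dimer partners of the NFE2 and BACH proteins.

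The member peaks fell into a short, low-fold group and a longer, higher-fold group, as seen after their values were known. The peaks at Creb1, Crebzf, Nfil3 and Nfe2l3 and the second at Creb3l1 had folds of 4.0 to 7.24 and lengths of 65 to 96 bp. Those at Atf7, Cebpb, Ddit3 and Crem and the first at Creb3l1 had folds of 11.53 to 22.11 and lengths of 138 to 170 bp. A fold under 10 with a length under 100 bp was thus found at 5 of 10 member peaks (50%), against 93 of all 2741 (3.39%). Scores overlapped between the groups, with 58.71 to 150.28 for the short peaks and 50.98 to 92.98 for the longer ones. The median fold of the member peaks was 9.385, against 16.75 for all peaks, and the median score was 66.46, against 61.3.

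**Figure D2:**
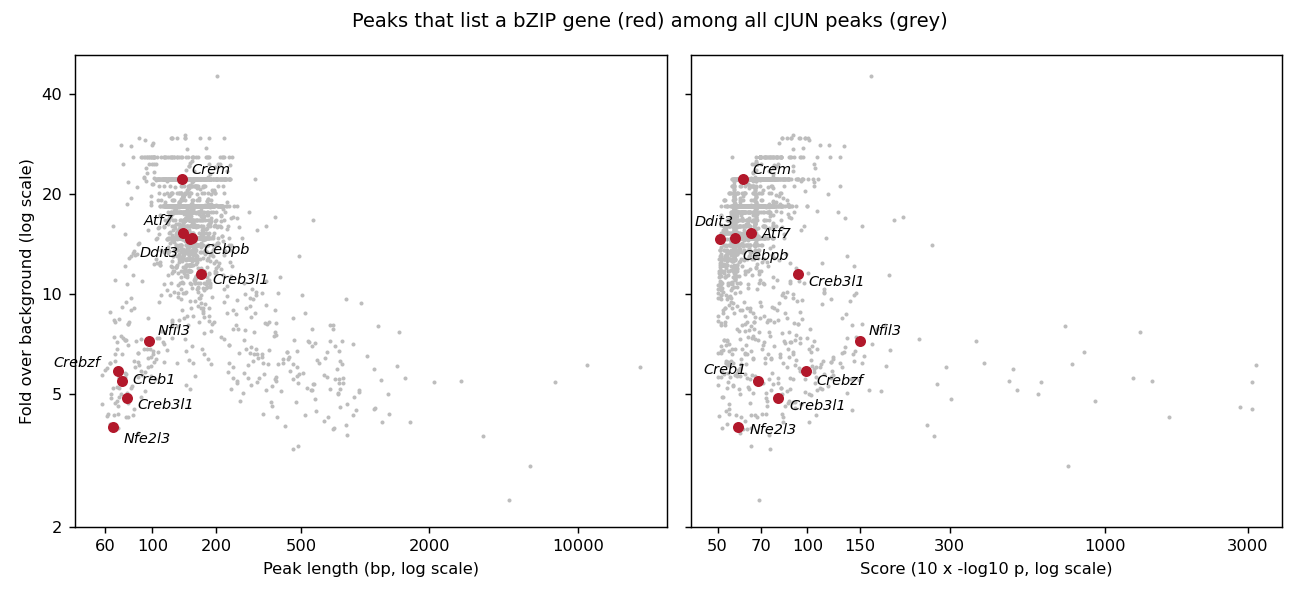
Fold over background against peak length in bp (left) and against score (right), all on log scales, for the 10 peaks that list a bZIP gene (red, named) and all 2741 peaks (grey). Of the red points, 5 lie below a fold of 10 and left of 100 bp, a corner that holds 93 of all peaks, and the score does not separate them from the other red points.

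Low-fold peaks of the table as a whole were mostly longer than those of the members. The 331 peaks with a fold under 10 had a median length of 229 bp, against 72 bp for the 5 at members, and 130 of the 331 (39.3%) lay in clusters, meaning runs of at least 5 peaks spaced by 100 kb or less. None of the 10 member peaks was in such a cluster, against 215 of all 2741 peaks (7.84%) and 5 of the 93 short, low-fold ones (5.38%). Only the Creb3l1 pair had another peak within 100 kb, and for the other 8 peaks the nearest one was 202 to 1845 kb away. Local background, copy number and mappability at these sites were not tested.

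Most member peaks were far from the start. The distance ranged from 782 bp at Crebzf to 385 kb at Nfe2l3, with a median of 68.5 kb, against 138 kb over all 4313 listings of protein-coding genes. Counted once per gene, by its shortest distance, the medians were closer, 67.8 kb for the 9 bZIP genes and 83.6 kb for the 2745 protein-coding genes with a peak. Of the 10 peaks, 2 were within 10 kb, 3 within 50 kb, another 5 between 50 and 150 kb, and 2 beyond. The bZIP gene was the nearer of the listed genes at 7 of the 10, against 55.8% of all those listings. The exceptions were Nfil3, Nfe2l3 and the second Creb3l1 peak. The Atf7 peak lists no other gene, so it could only count as nearer. Listings without another gene are in the 55.8% too. Upstream peaks were 6 of the 10, where Atf7 was counted from its nearer start, against 47.7% of all listings. All 5 low-fold peaks were upstream, although those of Nfil3 and Nfe2l3 and the second of Creb3l1 had another gene nearer. The upstream share of low-fold peaks over the whole list was not counted.

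**Figure D3:**
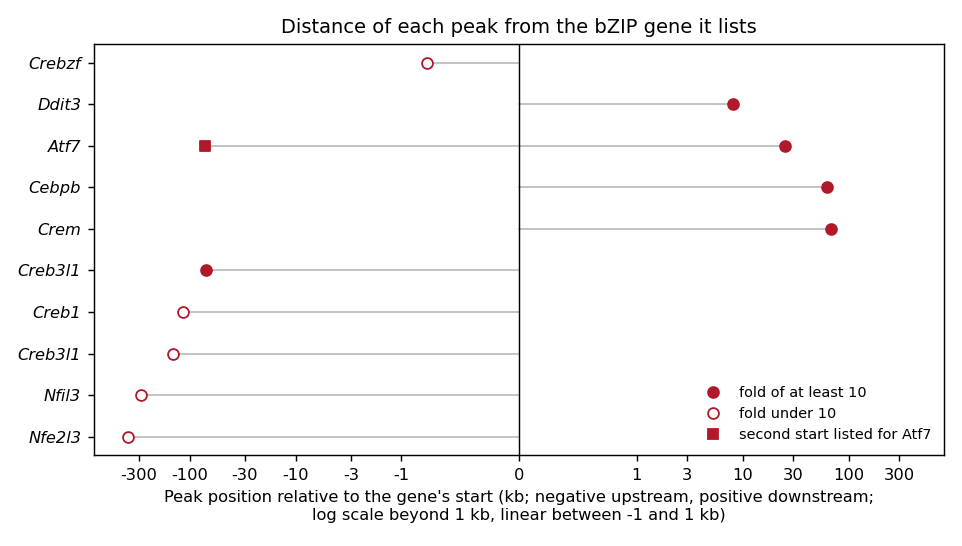
Position of each of the 10 peaks relative to the start of the bZIP gene it lists, in kb, with upstream to the left and downstream to the right, on a log scale beyond 1 kb. Filled points have a fold of at least 10 and open points a fold under 10; the square marks the second listed start of Atf7. The points run from 0.782 kb at Crebzf to 385 kb at Nfe2l3, and all open points are on the upstream side. At the open points of Nfil3, Nfe2l3 and Creb3l1 another listed gene was nearer.

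Genes that act on bZIP proteins were listed at shares near the 12.5% of all protein-coding genes. Of 38 genes of the JNK and other mitogen-activated kinase pathways that reach AP-1, 7 had a peak (18.4%). Map3k7, which encodes TAK1, had 3 peaks, at 70.5, 552 and 770 kb upstream. The farthest of them scored 143.69, with a fold of 6.31 and a length of 82 bp. The others were Mapk10 (the JNK3 gene), Map3k1, Map3k5, Map3k13, Map2k6 and Dusp4, a phosphatase gene, with 1 peak each. Jun's main kinase genes Mapk8 and Mapk9 had none. The nearest of these peaks was 23.2 kb downstream of the start of Map2k6, its fold 6.12 and its score 90.59. Of 25 cofactor and stress sensor genes, 4 had a peak (16%): Hcfc1, Eif2ak1, Trib1 and Trib2. Hcfc1, the gene of the Crebzf partner, had a peak 10.8 kb upstream of its start, with a fold of 18.42 and scoring 64.02. Eif2ak1, a kinase gene upstream of Atf4 translation, had one 42.4 kb upstream with a fold of 22.11. Short, low-fold peaks were 3 of 9 at the kinase genes and 0 of 6 at the cofactor genes. For other transcription factors, 22 of 82 genes with a Sox, Fox, Tbx or Gata symbol (26.8%) and 43 of 394 with a Zfp symbol (10.9%) had a peak, beside the same 12.5%.

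The share of bZIP genes with a peak followed the selection of peaks. With folds of at least 10 it was 5 of 51 (9.80%), against 11.7% of all protein-coding genes, below the share of all genes. With the nearer listed gene only it was 7 of 51 (13.7%), against 7.61%. Within 100 kb it was 6 of 51 (11.8%), against 6.83%. With a score of at least 100, Nfil3 was left, 1 of 51 (1.96%, against 0.644%). Within 50 kb, Atf7, Crebzf and Ddit3 were left, 3 of 51 (5.88%, against 4.46%).

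**Figure D4:**
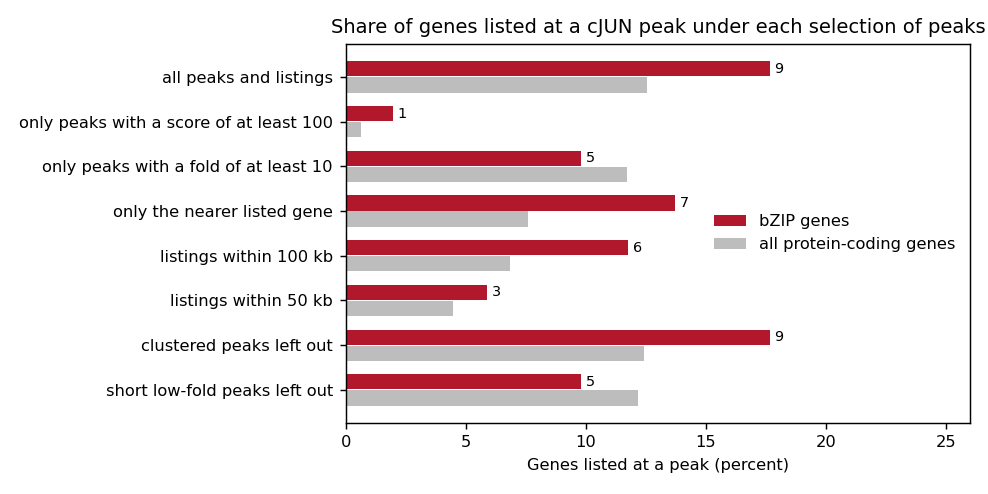
Percent of bZIP genes (red, with their number) and of all protein-coding genes (grey) listed at a peak, for all peaks and listings and for narrower selections. Exact symbols and peaks within 1 kb counted once are not drawn. The red bar exceeds the grey one with all peaks (17.6% and 12.5%) and is the shorter one with a fold of at least 10 (9.80% and 11.7%) and with short low-fold peaks left out (9.80% and 12.2%).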

How the data were processed

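Per the labels, 1 cJUN immunoprecipitate and 1 input library were sequenced. The submitters' processing notes name Bowtie 1.1.0, MACS 1.4 and mm9. How reads were filtered, how duplicates were treated, which threshold a peak had to pass and how genes were assigned are not given in the sources used here, and depth is unknown. Fold (a ratio over background) and score (10 times −log10 p) are the authors' deposited values per peak and were used only to describe and rank peaks of this list.

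Distances are deposited with a sign. Some genes were listed at 2 or more peaks and gave a single start under only 1 reading of the sign. Of 608 such genes with a known strand, 603 (99.2%) had the reading in which negative means upstream in the direction of transcription. A further 8 genes fitted neither reading. Listed names were matched to RefSeq symbols or unique synonyms of GRCm38.p6 (2870 of 2963, 96.9%), a table used for names, biotypes, strands and gene order. Intervals are Clopper-Pearson and cover counting error only. Calculations used Python 3.11.15, pandas 2.3.3 and scipy 1.17.1, and the listing count was tested on simulated data.

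All 51 members were named; members with a peak are described in full. Members and lists were chosen with earlier results of these data known, and the short, low-fold group, the gene families by symbol and the printed promoters after values were seen. The alternatives narrow the peaks by score, fold, distance, nearest gene, clusters, merging or exact symbols. For the share of all protein-coding genes, all gene symbols as background replaced exact symbols.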

Additional observations from a re-analysis of the deposited data

How the results depend on the processing

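The number of bZIP genes with a peak was 9 (17.6%, against 12.5% of all protein-coding genes). It was 1 with a score of at least 100 (1.96%, against 0.644%) and 5 with a fold of at least 10 (9.80%, against 11.7%). Within 50 kb it was 3 (5.88%, against 4.46%). Without short low-fold peaks, a choice made after seeing the data, it was 5 (9.80%, against 12.2%). The number of peaks, 10, was 1, 5, 3 and 5 with the same choices and 6 within 100 kb. Each choice leaves fewer peaks or listings. With a fold of at least 10, or without short low-fold peaks, the share of all protein-coding genes changed little. The members lost there, Creb1, Crebzf, Nfe2l3 and Nfil3, were listed only at short, low-fold peaks. The gene count and the peak count both stayed within 1.5 times with the nearer gene only and with peaks within 1 kb counted once. They also did so without clustered peaks and with exact symbols. Of 9 alternatives, the median distance moved by over 1.5 times in 3 (8.00 to 289 kb over all 9), the median fold in 5 (7.24 to 14.74) and the median score in 1 (60.84 to 150.28). The share of all protein-coding genes moved in 5 of 9. Among the 9 for this share, all gene symbols as background (5.74%, moved) took the place of exact symbols. No paired analysis was possible because each group has 1 library. Leaving out a replicate was not possible for the same reason. Depth is unknown, so an unlisted gene may have a site below the caller's threshold. An unlisted gene may also be near a called peak if the deposited list left that gene out.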
